A study of Mus musculus with 6 samples.

Results

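The genes described here are those of the neurotrophins and their receptors: the ligand genes Bdnf and Ntf3, the Trk receptor genes Ntrk2 and Ntrk3, the p75 receptor gene Ngfr and the sorting receptor gene Sort1. They were chosen by name, and all 6 were found among the 14824 genes listed. Bulk RNA-seq was performed on primary somatosensory (S1) cortex of WT mice of strain C57B6 at postnatal day 21, with 3 non-stimulated libraries (NS) and 3 libraries after daily whisker stimulation (WS) through the third postnatal week. The WS tissue was taken 90 minutes after the last stimulation. According to the study's methods the animals were male and only the right whiskers were brushed by hand. In the study the barrel cortex of the unstimulated side served as control, so hemisphere and stimulation cannot be told apart. A figure legend gives 3 mice for these data, so NS and WS libraries may come from the same animals. No label states which NS and WS libraries share a mouse, so the p-values measure the spread between these libraries. S1 cortex was taken as a whole, so every value below is a mean over neurons, glia and vessel cells and over all layers, and fewer cells of a type cannot be told apart from less RNA per cell.

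Neurotrophins are secreted growth factors that keep neurons alive, shape their branches and adjust their synapses. They are made as precursors, sorted into secretory vesicles with the help of sortilin, the product of Sort1, and cut by proprotein convertases. The mature factors act through Trk receptor tyrosine kinases, with BDNF binding TrkB (Ntrk2) and neurotrophin 3 binding mainly TrkC (Ntrk3), while the precursors bind the p75 receptor (Ngfr) together with sortilin. Bdnf transcription in cortical neurons is known to rise with synaptic activity and calcium entry, through several promoters that each join a different first exon to the same coding exon. The comparison of WS with NS therefore asks whether the mRNA of this family differed in a cortex whose sensory input had been raised.

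The gene Bdnf lies on chromosome 2 of GRCm38 (109674700 to 109727007, plus strand, GENCODE M21), the build that the submitters' notes call mm10. It has 11 annotated protein-coding transcripts, and 9 of them share a coding sequence of 747 bases. RefSeq lists 7 start sites for Bdnf in this build, and 1 count per gene sums over them, so transcripts from an activity-driven start cannot be told apart from the others here. The 250 bases before each start were searched on both strands for the cAMP response element TGACGTCA, for TCACGTCA, which differs from it at 1 base, and for the E-box CACGTG. Windows were held for 4 of the 6 genes. The following 2 Bdnf windows are shown because they hold the start with such a match and the most upstream start, which has none. Capitals mark the match, and both run 5′ to 3′ on the plus strand.
Bdnf, chr2:109692186-109692435: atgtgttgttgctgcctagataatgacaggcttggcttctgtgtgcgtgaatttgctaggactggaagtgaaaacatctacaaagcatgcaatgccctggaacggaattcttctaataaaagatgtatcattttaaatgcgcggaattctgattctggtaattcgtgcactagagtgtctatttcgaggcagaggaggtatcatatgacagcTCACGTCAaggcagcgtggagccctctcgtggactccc
Bdnf, chr2:109674450-109674699: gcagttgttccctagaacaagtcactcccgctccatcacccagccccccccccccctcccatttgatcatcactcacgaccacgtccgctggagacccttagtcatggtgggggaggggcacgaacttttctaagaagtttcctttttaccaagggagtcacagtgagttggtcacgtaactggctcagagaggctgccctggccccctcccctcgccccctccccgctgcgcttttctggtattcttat
The match TCACGTCA began 38 bases before the start at 109692436. The other 6 Bdnf windows held none of the 3 motifs. TCACGTCA was found in 0.35% of 32851 windows of the same length, TGACGTCA in 1.55% and CACGTG in 6.02%. A CACGTG match was also found in 1 of 2 Ntf3 windows, and none of the 3 motifs in the single windows of Ntrk2 and Ngfr. These matches describe the letters only, and no binding was measured.

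Read counts over the listed genes summed to between 15660395 and 17276168 per library. Counts are given below as they were computed back from the deposited values, and CPM are counts relative to library size, scaled by edgeR's TMM method. Neuron markers were present in every library, with summed levels of 14170 to 14440 CPM in NS and 13410 to 15030 CPM in WS over 7 of 7 genes. The summed levels of 5 of 6 choroid plexus markers ranged from 10.2 to 93.5 CPM and those of 6 striatal markers from 201.5 to 462.2 CPM over all libraries, with overlapping groups. The summed endothelial markers were 199.1 to 225.0 CPM in NS and 226.8 to 260.8 CPM in WS. Pecam1 lay farthest among these 8 genes, at a log2 fold change of 0.87, and without it the sums were 182.0 to 205.8 and 193.7 to 219.3 CPM, so that the groups overlapped (a choice made after the data were seen). Those of microglia were 361.4 to 375.0 and 376.3 to 389.4 CPM, those of interneurons 1001 to 1038 and 1064 to 1154 CPM, and those of 4 hippocampal markers 30.2 to 34.3 and 35.7 to 41.1 CPM. Of these 4 markers 2 lay above 0 in log2 fold change and 2 below, with Fibcd1 the farthest at 0.41. In these 4 of 13 marker lists every WS library lay above every NS library, and in the other 9 the groups overlapped. For single genes the share in that direction was 3.11%, and no share was computed for sums. Taken singly, 0 of the interneuron, microglia and hippocampal markers had groups that did not overlap. In log2 fold change 1 interneuron marker and 1 microglia marker lay below 0. The astrocyte markers summed to 4347 to 4860 and 4577 to 5667 CPM, and those of oligodendrocytes to 7949 to 11470 and 9436 to 12700 CPM. The oligodendrocyte sum was higher in WS in 3 of 3 pairs of same-numbered libraries, and 4 of its 6 genes (Mbp, Mog, Mag and Mobp) had an unadjusted p under 0.05 in the fit blocked on replicate number, against 1.38% of all genes in that direction, and 0 without the block. The part of tissue composition in the values below was not tested.

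Bdnf, which encodes brain-derived neurotrophic factor, was counted 472, 512 and 497 times in NS replicates 1, 2 and 3 and 471, 461 and 504 times in WS replicates 1, 2 and 3. The groups overlapped, and both the highest count and the lowest came from libraries numbered 2, in NS and WS respectively. Scaled for depth, the level was 30.9 ± 1.10 CPM in NS and 29.4 ± 2.11 CPM in WS (SD, n = 3 each). The log2 fold change was -0.07 with a 95% interval from -0.28 to 0.14, which on the linear scale runs from -17.4% to 9.94% (edgeR's quasi-likelihood test, adjusted p = 0.9998 after Benjamini-Hochberg correction across 13747 genes). An exact two-sided permutation test over the libraries gave p = 0.30, where 0.10 is the smallest that 3 libraries against 3 allow. The CV of Bdnf over the 6 libraries was 5.65%, close to the 4.54% that counting alone would give at its mean of 486.2 counts. Among 2478 genes of like level, within 0.5 on the log2 CPM scale, the median CV was 8.14%.

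Ntf3 (chromosome 6, 126101412 to 126166910, minus strand) encodes neurotrophin 3 and was near the lower limit of these libraries. It was counted 19, 8 and 9 times in NS and 4, 12 and 11 times in WS. The 2 extreme values came from the libraries numbered 1, with NS replicate 1 the highest and WS replicate 1 the lowest, and the other 4 lay between 8 and 12. Its level was 0.752 ± 0.387 CPM in NS and 0.558 ± 0.279 CPM in WS (SD, n = 3 each). The log2 fold change of -0.43 had an interval from -1.51 to 0.64 (adjusted p = 0.9998, edgeR's quasi-likelihood test), which includes a fall of 1 on the log2 scale but not a rise of 1. Without NS replicate 1 the log2 fold change was 0.065, and without WS replicate 1 it was -0.06. The ratio of Bdnf to Ntf3 counts, with 0.5 added to each count, does not depend on library scaling, and it was 24.2 in the lowest and 104.8 in the highest library. As a log2 ratio it was 5.41 ± 0.708 (SD, n = 3) in NS and 5.79 ± 0.807 (SD, n = 3) in WS, with p = 0.60 by an exact two-sided permutation test. The difference of 0.38 became 0.23 when 5 was added to each count instead of 0.5.

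**Figure D1:**
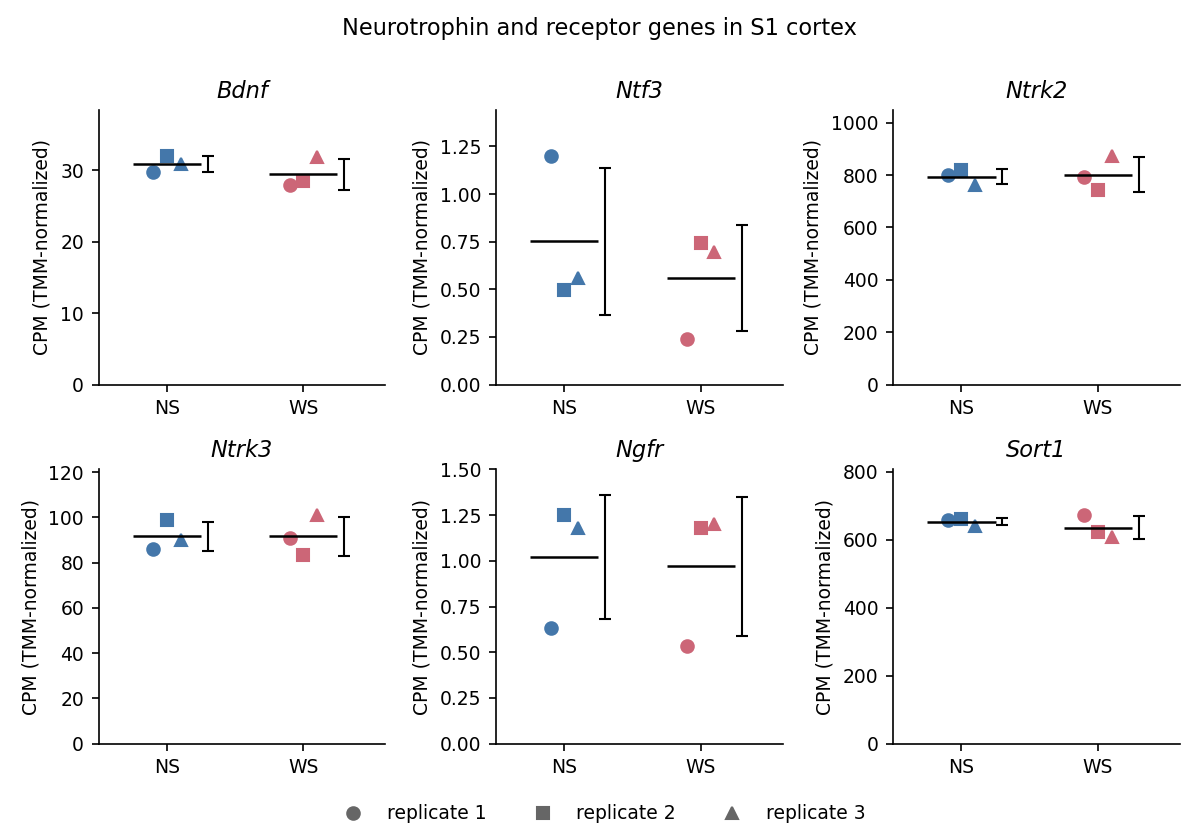
TMM-normalized CPM (vertical axes, starting at 0) of the 6 neurotrophin and receptor genes in NS (blue) and WS (red) libraries. Symbols give the replicate number, horizontal lines the mean and bars the SD of 3 libraries. The groups overlap in all 6 panels, and Ntf3 and Ngfr have the widest spread.

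Ntrk2 (chromosome 13, 58806569 to 59133970, plus strand) encodes TrkB, the receptor of BDNF, in a full-length form with a kinase domain and in truncated forms that astrocytes are known to make in quantity. It was counted 12689, 13108 and 12301 times in NS and 13344, 11989 and 13828 times in WS. The WS libraries held both the highest and the lowest value, so the NS values lay within the WS range. Its level was 794.0 ± 27.5 CPM in NS and 801.8 ± 66.6 CPM in WS (SD, n = 3 each), and its log2 fold change was 0.01 (interval -0.17 to 0.19, adjusted p = 0.9998, edgeR's quasi-likelihood test). Of its 7 annotated protein-coding transcripts, 2 have a coding sequence of 2463 bases and the other 5 have 1398 to 1476 bases. The count sums over them, so a shift between full-length and truncated TrkB would not be seen.

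Ntrk3 (chromosome 7, 78175959 to 78738012, minus strand) encodes TrkC. Its counts were 1366, 1583 and 1450 in NS and 1533, 1346 and 1593 in WS, again with the extremes in WS and overlapping groups. Its level was 91.7 ± 6.49 CPM in NS and 91.6 ± 8.70 CPM in WS (SD, n = 3 each). The log2 fold change was -0.0016, with an interval from -0.20 to 0.20. Within each library, with 0.5 added to each count, Ntrk2 had between 8.28 and 9.29 times the counts of Ntrk3. The log2 ratio of their counts was 3.12 ± 0.0874 (SD, n = 3) in NS and 3.13 ± 0.0204 (SD, n = 3) in WS, with p = 0.80 by an exact two-sided permutation test. The ratio of the Trk receptor counts differed between groups by less than the spread between libraries. The Ntrk3 count also sums over annotated transcripts, with 6 coding lengths from 248 to 2592 bases. The ratio therefore does not separate the forms of either receptor.

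Ngfr (chromosome 11, 95568818 to 95587735, minus strand) encodes the p75 receptor, which is known for its high level in the developing nervous system and its low level in the mature cortex. It was counted 10, 20 and 19 times in NS and 9, 19 and 19 times in WS. The libraries numbered 1 held about 10 counts in both groups and the other 4 held 19 or 20. Its level was 1.02 ± 0.339 CPM in NS and 0.969 ± 0.378 CPM in WS (SD, n = 3 each), with a log2 fold change of -0.08 and an interval from -0.93 to 0.77. Its CV over the 6 libraries was 32.4%, against 25% from counting alone.

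Sort1 (chromosome 3, 108284082 to 108361511, plus strand) encodes sortilin, which steers precursor neurotrophins in the cell and binds them together with p75 at its surface. It was counted 10415, 10589 and 10323 times in NS and 11350, 10076 and 9643 times in WS. The 3 NS values lay close together, inside the range of the WS values. Its level was 652.9 ± 10.4 CPM in NS and 634.9 ± 33.3 CPM in WS (SD, n = 3 each). The log2 fold change of -0.04 had an interval from -0.20 to 0.12, the narrowest of the 6 genes.

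None of the 6 genes passed an adjusted p of 0.05 with an absolute log2 fold change above 1 (edgeR's quasi-likelihood test), 0 had an unadjusted p under 0.05, and DESeq2 called 0. Over all 13747 tested genes these thresholds called 0.0291%, and 1.19% had an unadjusted p under 0.05 (0.866% higher and 0.327% lower in WS), so a count of 0 among 6 genes is near the background. The CPM of the groups did not overlap in 0 of the 6, against 6.27% of all tested genes (3.11% higher and 3.16% lower in WS). The median log2 fold change of the 6 was -0.05, with 1 above and 5 below 0, beside a median of 0.0074 over all tested genes. Every gene of the 6 passed the filter on low counts. What the data bound is the size of a change. In the fit without a block, the intervals of Bdnf, Ntrk2, Ntrk3 and Sort1 ended within 0.28 of 0 on the log2 scale. Those of Ntf3 and Ngfr reached -1.51 and -0.93. With a block on replicate number, the standard error rose from 0.094 to 0.107 for Bdnf and from 0.074 to 0.091 for Sort1. It also rose for Ntrk2 and Ntrk3, and fell from 0.492 to 0.456 for Ntf3 and from 0.388 to 0.325 for Ngfr. The bounds above therefore hold for the fit without the block only.

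**Figure D2:**
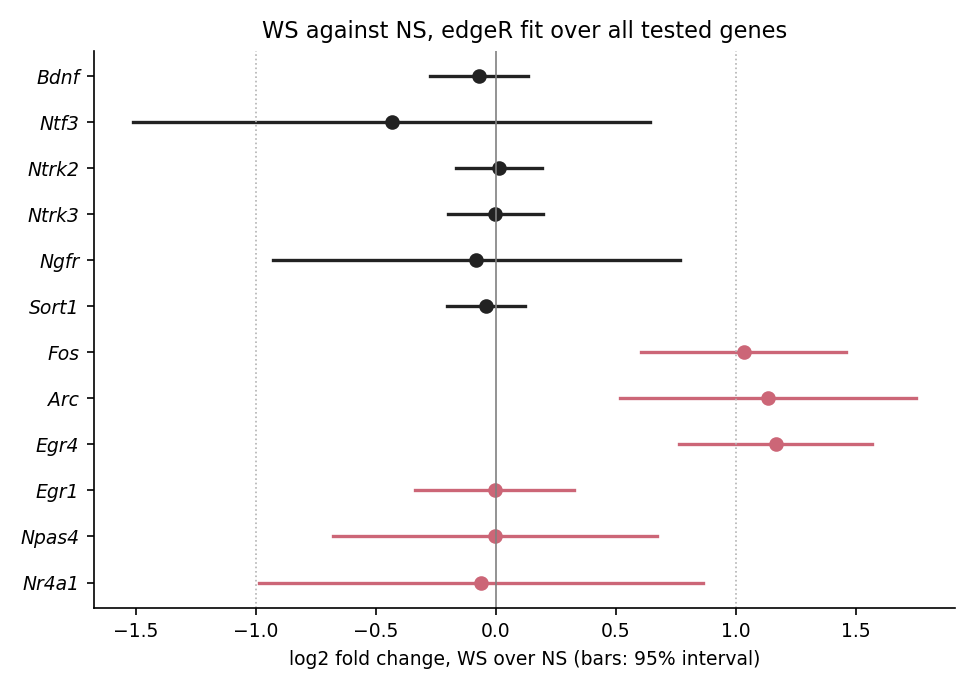
Log2 fold change of WS over NS (horizontal axis) with 95% intervals from edgeR for the neurotrophin and receptor genes (black) and 6 activity genes (red), with dotted lines at -1 and 1. The intervals of the black points all cross 0. The Bdnf interval ends at 0.14, while those of Fos, Arc and Egr4 begin at 0.61, 0.52 and 0.76. Intervals are not adjusted for the number of genes, and none of the genes shown was called in this fit.

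The levels of the 6 genes were ranked per length, as CPM per kb of annotated exon. The count ratios above were not scaled for length. Sort1 was the highest at 85.1 CPM per kb over the 6 libraries, followed by Ntrk2 at 41.4, Bdnf at 4.85, Ntrk3 at 3.04, Ntf3 at 0.382 and Ngfr at 0.289. Neighbours in this order did not overlap in any library, except that Ntf3 (0.138 to 0.699) overlapped with Ngfr (0.155 to 0.362). The order was the same when the longest transcript was used as the length, where Ntrk2 came to 91.3 CPM per kb and Sort1 to 94.2, so the gap of those 2 genes rests on the transcript length assumed. The mRNA of the receptors TrkB and sortilin was thus at a level well above that of the ligands in both groups. Genes that overlap in the annotation (1 for Bdnf, 4 each for Ntrk2 and Ntrk3, 2 for Sort1) could share reads, since the counting was not described.

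**Figure D3:**
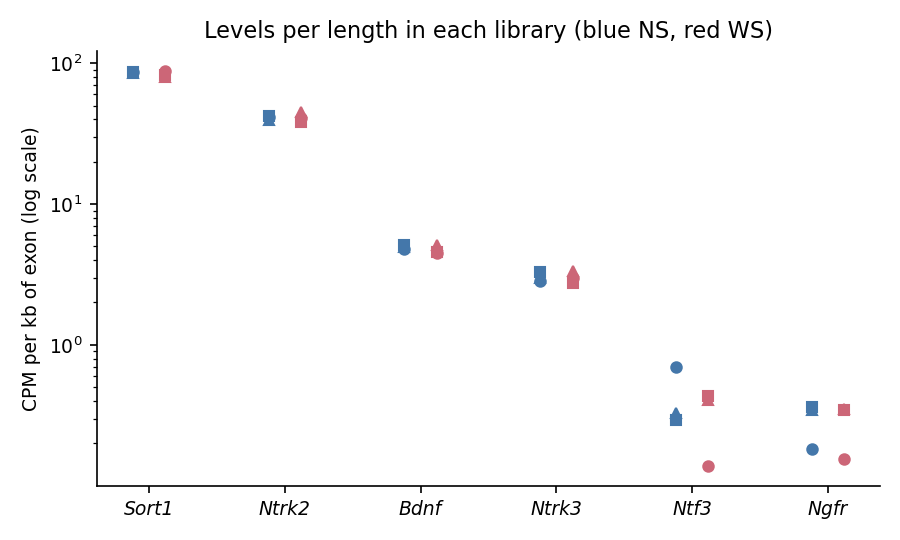
CPM per kb of annotated exon on a log axis for the 6 genes, ordered from high to low, with NS libraries in blue and WS libraries in red and symbols for the replicate number. Sort1 and Ntrk2 lie near 85.1 and 41.4, and Ntf3 and Ngfr below 1.

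Because Bdnf is known as an activity-dependent gene, 6 other activity genes were read in the same libraries. Fos, which encodes an AP-1 subunit, had 18.4, 15.0 and 14.8 CPM in NS and 25.1, 28.4 and 45.5 CPM in WS. Arc, which encodes a synaptic protein that drives AMPA receptor uptake, had 124, 116 and 182 CPM in NS and 204, 229 and 490.4 CPM in WS. The zinc finger factor gene Egr4 had 56.0, 37.8 and 31.2 CPM in NS and 76.7, 96.9 and 107.0 CPM in WS. In these 3 genes each WS library lay above each NS library, with log2 fold changes of 1.03, 1.13 and 1.17. Their adjusted p by edgeR's quasi-likelihood test was 0.416, 0.9998 and 0.101, and 5.9e-04, 2.2e-06 and 3.0e-05 when the fit was blocked on replicate number. In the blocked fit Arc and Egr4 rose, with log2 fold changes of 1.05 and 1.19, and Fos at 0.9967 was just inside the limit of 1.

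Egr1, Npas4 and Nr4a1 behaved like Bdnf in having overlapping groups, but their spread over the 6 libraries was wider. Npas4, a factor known to bind Bdnf regulatory regions in active neurons, had 16.6, 44.3 and 34.2 CPM in NS and 19.5, 41.1 and 34.4 CPM in WS. Nr4a1, an orphan nuclear receptor gene, had 54.3, 116 and 214 CPM in NS and 65.9, 108 and 194 CPM in WS. Both were lowest in the libraries numbered 1 of either group. Their log2 fold changes were -0.0037 and -0.06, and that of Egr1 was -0.0047. Npas4, Nr4a1 and Egr1 were at 0.031, 0.0061 and 0.017 in the fit blocked on replicate number, and none of the 3 passed (adjusted p = 0.9999 for each, edgeR's quasi-likelihood test). Over the 6 libraries the CV of Npas4 was 35.6% and that of Nr4a1 52.3%, against 5.65% for Bdnf, although Npas4 and Bdnf had similar mean counts (510.3 and 486.2). Without the block the standard errors of the log2 fold change were 0.309 for Npas4, 0.423 for Nr4a1 and 0.094 for Bdnf. With the block they were 0.109, 0.103 and 0.107.

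**Figure D4:**
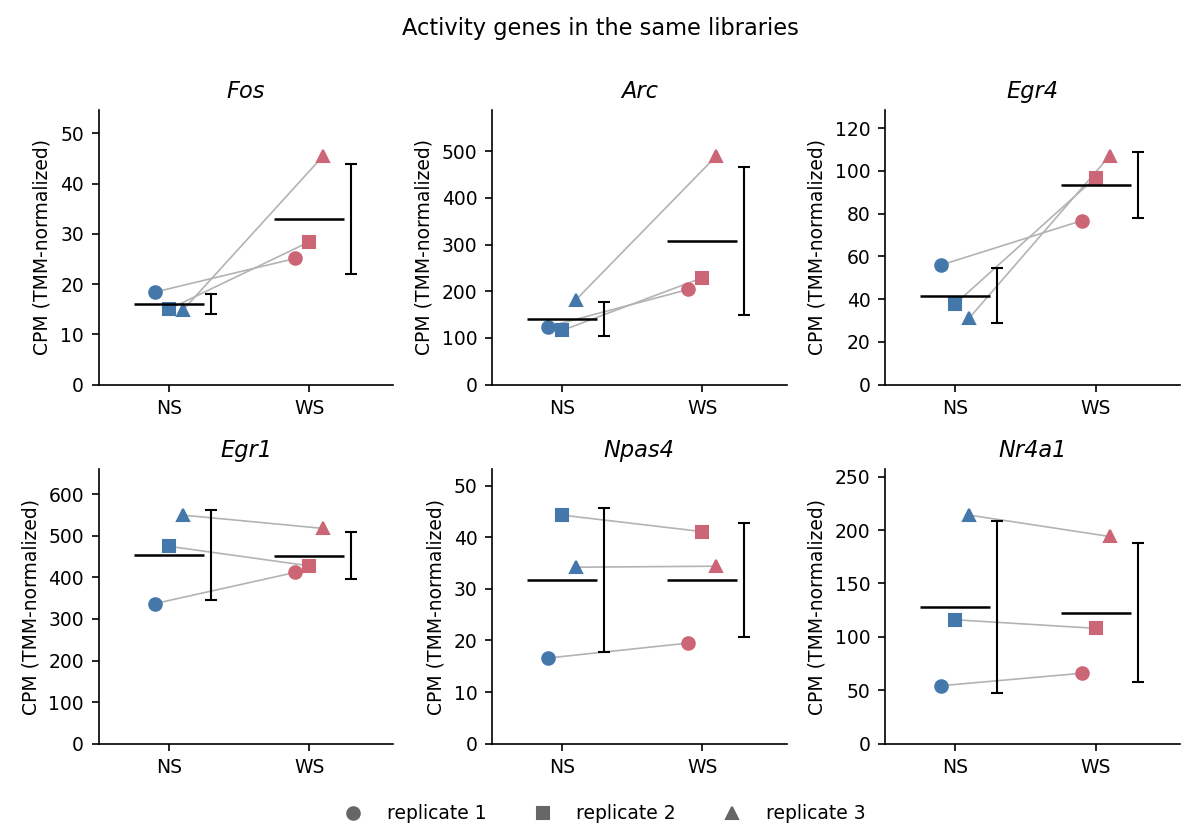
TMM-normalized CPM (vertical axes, starting at 0) of Fos, Arc, Egr4, Egr1, Npas4 and Nr4a1 in NS (blue) and WS (red), with grey lines joining libraries of the same replicate number, horizontal lines for the mean and bars for the SD of 3 libraries. Each WS library is above each NS library for Fos, Arc and Egr4, and Npas4 runs from 16.6 to 44.3 CPM within NS.

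The machinery that makes, sorts and reads neurotrophins was followed in gene lists. In the first 5 lists below, edgeR's quasi-likelihood test and DESeq2 each called 0 genes, and 0 genes had an unadjusted p under 0.05. Over all tested genes the shares were 0.0291%, 0.0364% and 1.19%, so a count of 0 in each list is near the background. Of 10 tested genes that process or release precursor neurotrophins, 0 were called in either direction, and the median log2 fold change was -0.02, with values from -0.20 for Mmp9 to 0.23 for Pcsk6. Pcsk6, a proprotein convertase gene, had 16.1, 18.7 and 16.4 CPM in NS and 18.5, 19.8 and 21.7 CPM in WS, with overlapping groups and a log2 fold change of 0.23. Plat encodes tissue plasminogen activator, which starts the extracellular cutting of the BDNF precursor. It had 33.5 ± 2.45 and 36.3 ± 0.410 CPM (SD, n = 3 each), and its log2 fold change was 0.12. It was the 1 of 10 genes whose groups did not overlap, against 3.11% of all tested genes in that direction. Cpe, which encodes the carboxypeptidase known to sort the BDNF precursor, had the highest count of the list and a log2 fold change of 0.03.

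Among the 4 Vps10p receptors related to sortilin, 0 were called and the median was 0.02. Sorcs2, a partner of p75 for precursor BDNF, had 54.8 ± 5.22 CPM in NS and 60.0 ± 1.74 CPM in WS (SD, n = 3 each), and its log2 fold change was 0.13. Sorcs3 had a log2 fold change of 0.09, and Sorl1, the most counted of the 4, one of -0.04. All 4 lay between -0.04 and 0.13.

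Of 35 genes for Trk adaptors and the kinases below them, 0 were called, with a median of -0.0068 and a range from -0.11 to 0.22. Gab1, a docking protein gene, and Shc3, which encodes an adaptor of Trk receptors in neurons, had the smallest p-values of the list. Gab1 had 30.1, 39.0 and 36.1 CPM in NS and 35.3, 41.3 and 44.1 CPM in WS, and its log2 fold change was 0.20. Shc3 had 16.3, 16.4 and 13.2 CPM in NS and 19.0, 14.8 and 19.5 CPM in WS, and its log2 fold change was 0.22. The groups of both genes overlapped, and neither passed the test (adjusted p = 0.9998, edgeR's quasi-likelihood test). Kidins220, which encodes a scaffold that binds Trk receptors, was the most counted gene of the list and had a log2 fold change of -0.04. Groups did not overlap in 1 of the 35 genes, Crk, lower in WS, against 3.16% of all tested genes in that direction.

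The list of p75 partners had 17 tested genes, 0 called and a median of 0.0039, with values from -0.15 to 0.49 for Nradd. Adam17, whose product cuts p75 at the cell surface, had 15.1, 16.9 and 15.7 CPM in NS and 17.6, 17.1 and 19.2 CPM in WS and a log2 fold change of 0.18. It was the 1 of 17 genes whose groups did not overlap, against 3.11% of all tested genes in that direction. Irak1 had a log2 fold change of 0.15. Lingo1, a co-receptor of p75 and the most counted gene of the list, had one of -0.0065.

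Of 19 regulators of Bdnf transcription, 0 were called, with a median of -0.0077 and values from -0.14 to 0.14. Mef2c, a calcium-responsive factor gene, had 840.3 ± 40.0 CPM in NS and 760.3 ± 35.5 CPM in WS (SD, n = 3 each), and its log2 fold change was -0.14. Crebbp, which encodes a co-activator of CREB, had 57.6 ± 0.948 and 63.6 ± 3.19 CPM (SD, n = 3 each) and a log2 fold change of 0.14. The groups of these 2 of 19 genes did not overlap, in opposite directions, against 6.27% of all tested genes in either direction, and neither passed the test (adjusted p = 0.9998, edgeR's quasi-likelihood test). Camk2a, the most counted gene of the list, had a log2 fold change of -0.01.

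Of 14 genes known to be raised by BDNF in neurons, 0 were called without the block, 2 with it (Arc and Egr4) and 1 by DESeq2 (Fos). Over all genes the shares called were 0.0436% with the block and 0.0364% by DESeq2. The median log2 fold change was -0.04 without the block and 0.01 with it. Arc, Egr4 and Fos were the 3 genes with an unadjusted p under 0.05, against 0.866% of all tested genes in that direction. Groups did not overlap in these 3 genes, higher in WS (3.11% of all tested genes), and in Homer1, lower in WS (3.16%). The other 11 lay between -0.15 and 0.12, with the neuropeptide gene Npy at 0.12, the neurosecretory gene Vgf at 0.04, the pentraxin gene Nptx2 at -0.08 and the scaffold gene Homer1 at -0.15. Arc, Egr4 and Fos are also known targets of synaptic activity itself, and the lists were drawn up with results of these data known.

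**Figure D5:**
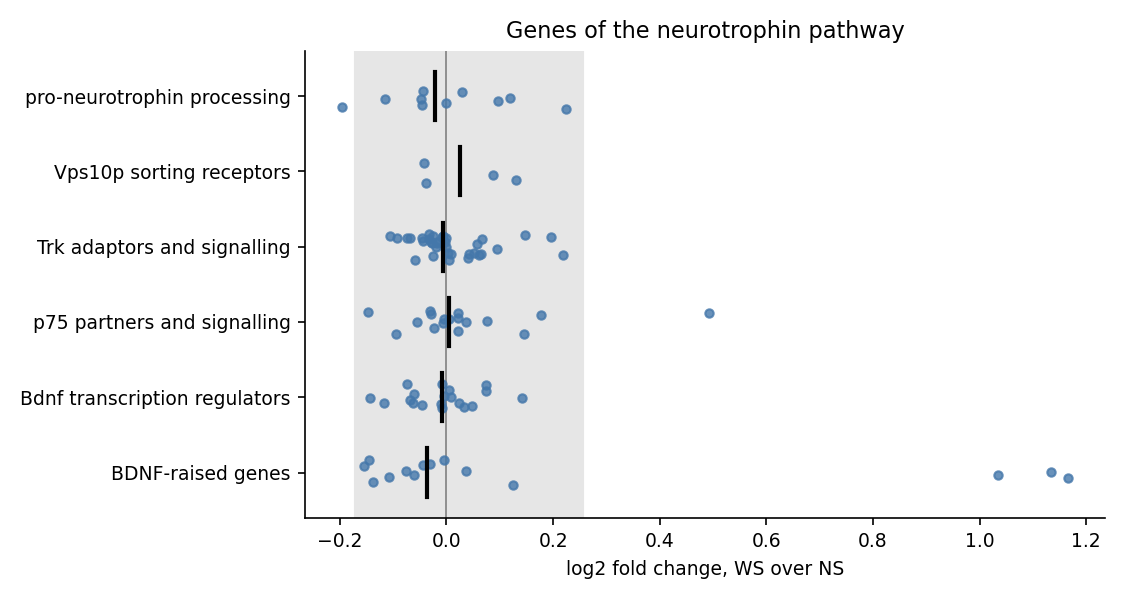
Log2 fold change of WS over NS (horizontal axis) for the tested genes of 6 lists of the neurotrophin pathway, 1 point per gene, with a black bar at the list's median and a grey band from the 5th to the 95th percentile of all tested genes (-0.17 to 0.26). The medians lie between -0.04 and 0.02, Fos, Arc and Egr4 stand to the right of the band in the lowest row, and Nradd and Mmp9 are the other genes outside it.

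The genes with the most similar profile were found by the root mean square distance between log2 CPM values over the 6 libraries, each gene centred on its own mean, over genes whose mean count was 100 or more. Nearest to Bdnf were Ptk2, Cipc and Plcxd2, at distances of 0.012, 0.021 and 0.022, where the median distance over 10873 genes was 0.13. Nearest to Ntrk2 were Arhgap21, Kcnb2 and Ylpm1 (0.014, 0.017 and 0.018). Nearest to Ntrk3 were Ptcd1, Mccc2 and Kansl3 (0.015, 0.027 and 0.027), and nearest to Sort1 were Tfe3, Eif3c and Vps26b (0.011, 0.012 and 0.014). For the genes with few counts the nearest profiles were farther away, with Htr2c, Rmdn2 and Zfp825 at 0.41, 0.44 and 0.46 from Ntf3 and Morf4l1b, Wwox and Gprin3 at 0.11, 0.12 and 0.14 from Ngfr. A short distance between genes that vary little reflects their small spread.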

How the data were processed

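Total RNA of S1 cortex was sequenced on a DNBseq instrument. Reads from rRNA or of low quality were discarded by the authors, who aligned the rest with HISAT2 (its version and the counting tool are not given in the sources used here) and used mm10 according to the submitters' notes. The deposited table gives, per gene, the mean over libraries as an estimated count not scaled for depth, and also the SD and each library's z-score. Per the labels, RNA with an integrity number above 2 was accepted. It also holds the authors' own comparison, with a deposited p-value, its −log10, a fold change column and an FDR score, which were not used, nor was a second table that repeats them for some genes. The column taken as WS replicate 3 carries an extra letter in its header, and its assignment rests on the number and group it names.

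Counts were computed back as mean plus z-score times SD and rounded to whole numbers. In 13418 of 14824 genes the rounding left less than 0.1 count of uncertainty, and 91.0% of their values lay within 0.1 of a whole number. Ntrk2 and Sort1 had up to 0.343 and 0.286 counts of uncertainty. No pair of libraries agreed within sampling noise (lowest chi-square per degree of freedom 4.49).

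Tests used edgeR 4.0.16 (TMM, filterByExpr, quasi-likelihood F test, Benjamini-Hochberg adjustment over 13747 genes). Calls were made where the adjusted p was under 0.05 and the log2 fold change beyond 1 in either direction. These are the thresholds of the study's methods, which name DESeq2 and PossionDis as the tools. The study reported more genes than were called here. The procedure was tested on simulated data. Standard errors were taken as the fold change over the square root of F, and 95% intervals from them. The biological coefficient of variation was 10.1%. The software was Python 3.11.15 with SciPy 1.17.1, and R 4.3.3 with DESeq2 1.42.0 as the alternative test. Ratios used a pseudocount of 0.5 counts. The deviations from the group mean correlated between same-numbered libraries (r of 0.34, 0.23 and 0.13 over 13747 genes, not independent of each other), so the numbers of the labels were taken to pair the libraries, and blocked values are given where they change a call. The genes and lists were chosen with earlier results of these data known, so their outcome is no independent support. Named genes were the members, 6 activity genes, the 2 smallest p-values and the highest count of each list, and the 3 nearest profiles. A few genes are not reported here, and list and profile values were computed without them. Crk, Npy, Vgf, Nptx2, Homer1, Mmp9, Nradd, Fibcd1, Pecam1, Mbp, Mog, Mag and Mobp were named after their values were seen. Intervals cover these libraries only, and depth lay between 15660395 and 17276168 counts. Gene positions and lengths came from GENCODE M21 and promoter windows from RefSeq on GRCm38.p6.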

Additional observations from a re-analysis of the deposited data

How the results depend on the processing

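None of the 6 genes was called under any alternative tried (other normalizations and filters, DESeq2, a replicate block, and leaving out each library), and their lowest adjusted p was 0.884. The replicate block left their log2 fold changes at -0.07 for Bdnf, -0.43 for Ntf3, 0.01 for Ntrk2, -0.0032 for Ntrk3, -0.08 for Ngfr and -0.04 for Sort1, and changed no call other than those of Arc and Egr4 among the genes named. With each library left out in turn, values ran from -0.13 to -0.03 for Bdnf and from -0.08 to -0.01 for Sort1. They crossed 0 for Ntf3 (-0.71 to 0.065), Ntrk2 (-0.052 to 0.059), Ntrk3 (-0.075 to 0.056), Ngfr (-0.33 to 0.22), Egr1 (-0.18 to 0.16), Npas4 (-0.31 to 0.31), Nr4a1 (-0.56 to 0.53), Cpe (-0.015 to 0.093), Sorcs3 (-0.0017 to 0.15), Lingo1 (-0.15 to 0.11), Kidins220 (-0.15 to 0.0415) and Camk2a (-0.094 to 0.058). Beside Bdnf, Sort1 and Arc, values that kept their sign but moved by over 1.5 times from the fit of all 6 libraries included those of Gab1 (0.0986 to 0.2845), Shc3 (0.1212 to 0.3242), Plat (0.0602 to 0.1597), Sorcs2 (0.0807 to 0.2106), Irak1 (0.0766 to 0.21) and Sorl1 (-0.1052 to -0.0028). The log2 ratio difference ran from -0.077 to 0.68 for Bdnf to Ntf3 and from -0.019 to 0.064 for Ntrk2 to Ntrk3. With a filter of a mean of at least 50 counts, which leaves out Ntf3 and Ngfr, Ntrk3 was at 0.0019 and Npas4 at 0.0014. With the block, Egr1 was at 0.017, Npas4 at 0.031 and Nr4a1 at 0.0061. List medians ran from -0.0392 to 0.0457 for precursor processing, from -0.0227 to 0.0264 for Trk signalling, from -0.0459 to 0.0448 for p75 partners, from -0.0283 to 0.0141 for Bdnf regulators, from 0.0015 to 0.0621 for Vps10p receptors and from -0.15 to 0.16 for genes raised by BDNF. Of the last list, 0 to 2 genes were called with a library left out, 1 by DESeq2 and 2 with the block. By DESeq2 Fos was called. With a library left out, Fos lay between 0.73 and 1.199, Arc between 0.63 and 1.36 and Egr4 between 1.00 and 1.44. The lowest values of Fos and Arc were those without WS replicate 3. Egr4 was called without NS replicate 1, while both Fos and Egr4 were called without WS replicate 1. Over all genes, 4 were called higher, with 0 to 6 when a library was left out (0 without NS replicate 2 or NS replicate 3), and 0 lower, with 0 to 1 (1 without WS replicate 3). By an unadjusted p under 0.05 alone there were 119 higher and 45 lower. The causes were not tested. Ntf3 and Ngfr had means of 10.5 and 16.0 counts, where counting alone gives CVs of 30.9% and 25%, against 48.9% and 32.4% measured.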

Other observations

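Ngfr differed more between replicate numbers than between groups. The libraries numbered 1 held 19 Ngfr counts in NS and WS together, against 39 in those numbered 2 and 38 in those numbered 3. The summed levels of 6 oligodendrocyte markers were also lowest in the libraries numbered 1, at 7949 CPM in NS and 9436 CPM in WS, against 10830 to 11470 CPM in the other NS and 12510 to 12700 CPM in the other WS libraries. The same held for the summed markers of oligodendrocyte precursors, pericytes, choroid plexus and Schwann cells, so that 5 of 13 marker lists were lowest in the library numbered 1 of both groups. The pattern was noticed after the values were seen, rests on few counts, and was not tested.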
